A study of Mus musculus with 14 samples.

Results

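The unfolded protein response and the integrated stress response were read here through 35 genes in 3 mouse tumour cell lines given a RIG-I agonist. The genes were taken as a list: 3 sensors of the endoplasmic reticulum (ER), 8 transcription factors, 11 targets of the transcription factor ATF4, and 13 ER chaperones and ER-associated degradation genes. All 35 were found by Ensembl identifier among the 34866 identifiers of each count table. All 35 were tested in CT26 and in MC38, and 34 in E0771, where Vldlr had 0 counts in every library.

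Unfolded protein in the ER is sensed by PERK (Eif2ak3), IRE1 (Ern1) and ATF6. PERK phosphorylates the translation factor eIF2, which lowers protein synthesis while favouring translation of Atf4 mRNA, and ATF4 then switches on genes of amino acid supply, redox control and, with CHOP (Ddit3), cell death. IRE1 splices Xbp1 mRNA, and ATF6 is cut in the Golgi, and both branches raise chaperones such as BiP (Hspa5). The eIF2 step is shared with kinases that are not ER sensors, among them PKR (Eif2ak2), which binds double-stranded RNA, so the ATF4 branch can be set against the chaperone branch. RIG-I itself is a cytosolic receptor for viral RNA that drives interferon.

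CT26 is a colorectal carcinoma line of BALB/c mice, E0771 a mammary cancer line of C57BL/6 mice, and MC38 a C57BL/6 colon adenocarcinoma line. Cells were plated at 100000 per well and received either agonist at 0.5 ug/ml for 24 h. Stranded poly(A)+ libraries were made, with 3 libraries per agonist in CT26, 2 in E0771 and 2 in MC38, 14 in all. Untreated cells were not analysed here. Each line is its own table, and the library names of E0771 and MC38 share a prefix that those of CT26 lack, so line and experiment cannot be told apart where CT26 is compared; whether E0771 and MC38 were treated together is not given in the sources used here. No source used here says that replicates were separate cultures, so the p-values may measure technical spread only.

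Each CT26 library held 32826742 to 40564102 counts, each E0771 library 12413347 to 13399247 and each MC38 library 12347361 to 18964563. The biological coefficient of variation, edgeR's estimate of the spread between replicates, was lowest in MC38 (0.0304), higher in CT26 (0.102) and highest in E0771 (0.202). Ifnb1, Isg15, Ifit1 and Cxcl10, genes that RIG-I signalling induces, were 4 of 4 higher in each line. Of 8 epithelial markers, 2 reached a mean of 1 CPM (counts scaled by library size) in the CT26 controls, 1 in E0771 and 0 in MC38, and Epcam had 0 counts in the controls of all 3 lines. The 8 summed to 22.8 to 27.7 CPM in the CT26 controls, 223 to 278 in E0771 and 0.772 to 1.15 in MC38. With the RIG-I agonist the sums were 18.8 to 20.5, 209 to 236 and 0.526 to 0.895 CPM. The 8 leukocyte markers summed to between 3 and 12.4 CPM in any library. Of 7 fibroblast and mesenchymal markers, none was at 0 counts in CT26 or MC38. Of the 7, 5 fell in CT26 and 5 in MC38 (18.6% and 16.9% of all genes fell), with Col1a1, Pdgfra, Pdgfrb and Vim in both. Their summed level was 4226 to 4546 CPM with the RIG-I agonist against 4854 to 5287 CPM in CT26, and 1694 to 1739 against 2138 to 2162 CPM in MC38. In E0771 the sum was 2221 to 2443 against 3152 to 3321 CPM, and Dcn was at 0. There, 0 of 5 were called by edgeR within the line and 0 of 6 by DESeq2, with 1 of the 5 at an unadjusted p under 0.05 (edgeR). An edgeR fit of all libraries called 2 of 7 lower in E0771, where 639 of all 14657 genes were lower. The median log2 fold change of these markers within the line was -0.48 in E0771, against -0.34 in CT26 and -0.32 in MC38. The falls numbered 2 in CT26 without RIG-I replicate 1 and 3 without control replicate 2 or RIG-I replicate 2, and in MC38 2 with DESeq2 and 1 in a fit of all libraries. Of the 4 endothelial markers Kdr rose in CT26, from 1 count over the controls to 108 over the treated libraries. It passed the low-count filter through the treated libraries alone. The sum of the 4 stayed at or below 3.37 CPM there. The part of these markers in the results was not tested. The share of mitochondrial counts was 0.811% and 2.21% in the E0771 RIG-I libraries against 2.82% and 5.8% in its controls. It was 3.01% to 3.2% against 4.79% to 5% in MC38, and 2.85% to 3.19% against 2.44% to 2.88% in CT26; its part in the results was not tested.

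Promoter letters bound by factors of the branches are shown first. ATF4 with its C/EBP partners binds the CARE letters TGATGNAA, while ATF6 with NF-Y binds the ERSE letters, CCAAT and CCACG with 9 bases of any kind between them. RefSeq promoter windows of GRCm38.p6, running from 250 bases before to 50 after the annotated start, were present for 32 of the 35 genes and were searched on both strands. Capitals mark the letters found, all sequences read 5′ to 3′ on the gene's strand, and a match on the other strand appears as its reverse complement.
Chac1: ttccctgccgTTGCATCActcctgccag
Asns: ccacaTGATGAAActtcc
Vldlr: aatagTTGCATCAgcgct
Atf3: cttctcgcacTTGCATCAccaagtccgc
Hspa5: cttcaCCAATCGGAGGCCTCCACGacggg
Creld2: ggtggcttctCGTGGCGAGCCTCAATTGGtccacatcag
Pdia6: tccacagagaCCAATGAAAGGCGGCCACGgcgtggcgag
Dnajc3: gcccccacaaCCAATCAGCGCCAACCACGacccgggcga
Herpud1: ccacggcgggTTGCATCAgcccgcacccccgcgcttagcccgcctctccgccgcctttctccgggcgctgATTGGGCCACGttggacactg
Hsp90b1: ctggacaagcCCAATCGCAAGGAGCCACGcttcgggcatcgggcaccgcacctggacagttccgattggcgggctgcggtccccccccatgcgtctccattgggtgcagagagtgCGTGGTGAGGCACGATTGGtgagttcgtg

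The CARE stretches lie at chr2:119351039-119351066 on the plus strand for Chac1, chr6:7693220-7693237 on the minus strand for Asns, chr19:27216815-27216832 on the plus strand for Vldlr and chr1:191183426-191183453 on the minus strand for Atf3. The Hspa5 stretch lies at chr2:34772020-34772048 (plus strand), and those of Hspa5, Asns and Vldlr fall inside exons that GENCODE annotates. Creld2 is shown at chr15:88819510-88819548, Pdia6 at chr12:17266481-17266519 and Dnajc3 at chr14:118937817-118937855, all on the plus strand. Herpud1 is shown at chr8:94386307-94386397 on the plus strand, and Hsp90b1 at chr10:86705523-86705666 on the minus strand. CARE letters were found in 4 of 11 ATF4 targets (Chac1, Trib3, Asns and Vldlr) against 3.97% of all 32851 windows, and also in Atf3, Nupr1 and Herpud1. A gene counted if any of its windows held the letters, whereas the share is per window. ERSE letters were found in 5 of the 11 ER chaperones with a window (Hspa5, Hsp90b1, Pdia6, Dnajc3 and Creld2), with 2 copies in Hsp90b1, against 0.119% of all windows. Herpud1, an ER membrane protein of the degradation machinery, held both CARE and the ERSE-II letters, ATTGG and CCACG with 1 base of any kind between them, the latter in 0.0365% of all windows. Ppp1r15a held the ATF/CREB letters TGACGTCA (1.79% of all windows), and the UPRE letters TGACGTGG (0.676%) were in no window of the list. These are matches of letters, not measured binding.

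With the RIG-I agonist, 18 of the 35 genes were higher and 10 lower in CT26, where 19.8% of all 13893 genes tested were higher and 18.6% lower. In MC38, 31 of 35 were higher and 3 lower, against 18.9% and 16.9% of 12387 genes. In E0771, 1 of 34 was higher and 0 lower by edgeR's quasi-likelihood test, against 1.53% and 0.0256% of 11728 genes. There, 6 further genes had an unadjusted p under 0.05, of which 5 were above and 1, Eif2ak3, below the control. With Atf3 that is 7 of 34, against 10.6% of all genes at an unadjusted p under 0.05. DESeq2 called 3 higher and 0 lower, against 370 and 45 of 19699 genes. With the replicate number as a block, edgeR called 11 higher and 2 lower in E0771, against 1243 and 1215 of 11728 genes. Same-numbered E0771 libraries correlated at 0.59 over 2 pairs, but no label says that the numbers pair libraries. A gene counts as higher or lower when its Benjamini-Hochberg adjusted p over all genes of the line was under 0.05. RIG-I and control libraries did not overlap for 27 genes in CT26 (18 above, 9 below, against 26.4% and 25% of all genes) and for 34 in MC38 (31 above, 3 below, against 33.4% and 33.8%). In E0771 they did not overlap for 13 of 34 genes (11 above, 2 below, against 20.4% and 20%). In 1 fit of all 14 libraries with a shared spread, the calls came to 9 higher and 9 lower in CT26, against 1520 and 1983 of all 14657 genes. They came to 7 and 1 in E0771 (all genes: 949 and 639) and to 14 and 1 in MC38 (624 and 374). The coefficient of variation in that fit was 0.122, below the 0.202 of E0771 alone and above the 0.102 of CT26 and 0.0304 of MC38. Its part in these calls was not tested. DESeq2 called 26 higher and 1 lower in MC38, against 1156 and 804 of 21016 genes. The MC38 rises of Atf5, Cebpg, Nupr1, Hsp90b1, Hyou1, Pdia4, Pdia6, Edem1 and Sel1l and the fall of Ddit4 were among the calls lost in the shared fit.

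**Figure D1:**
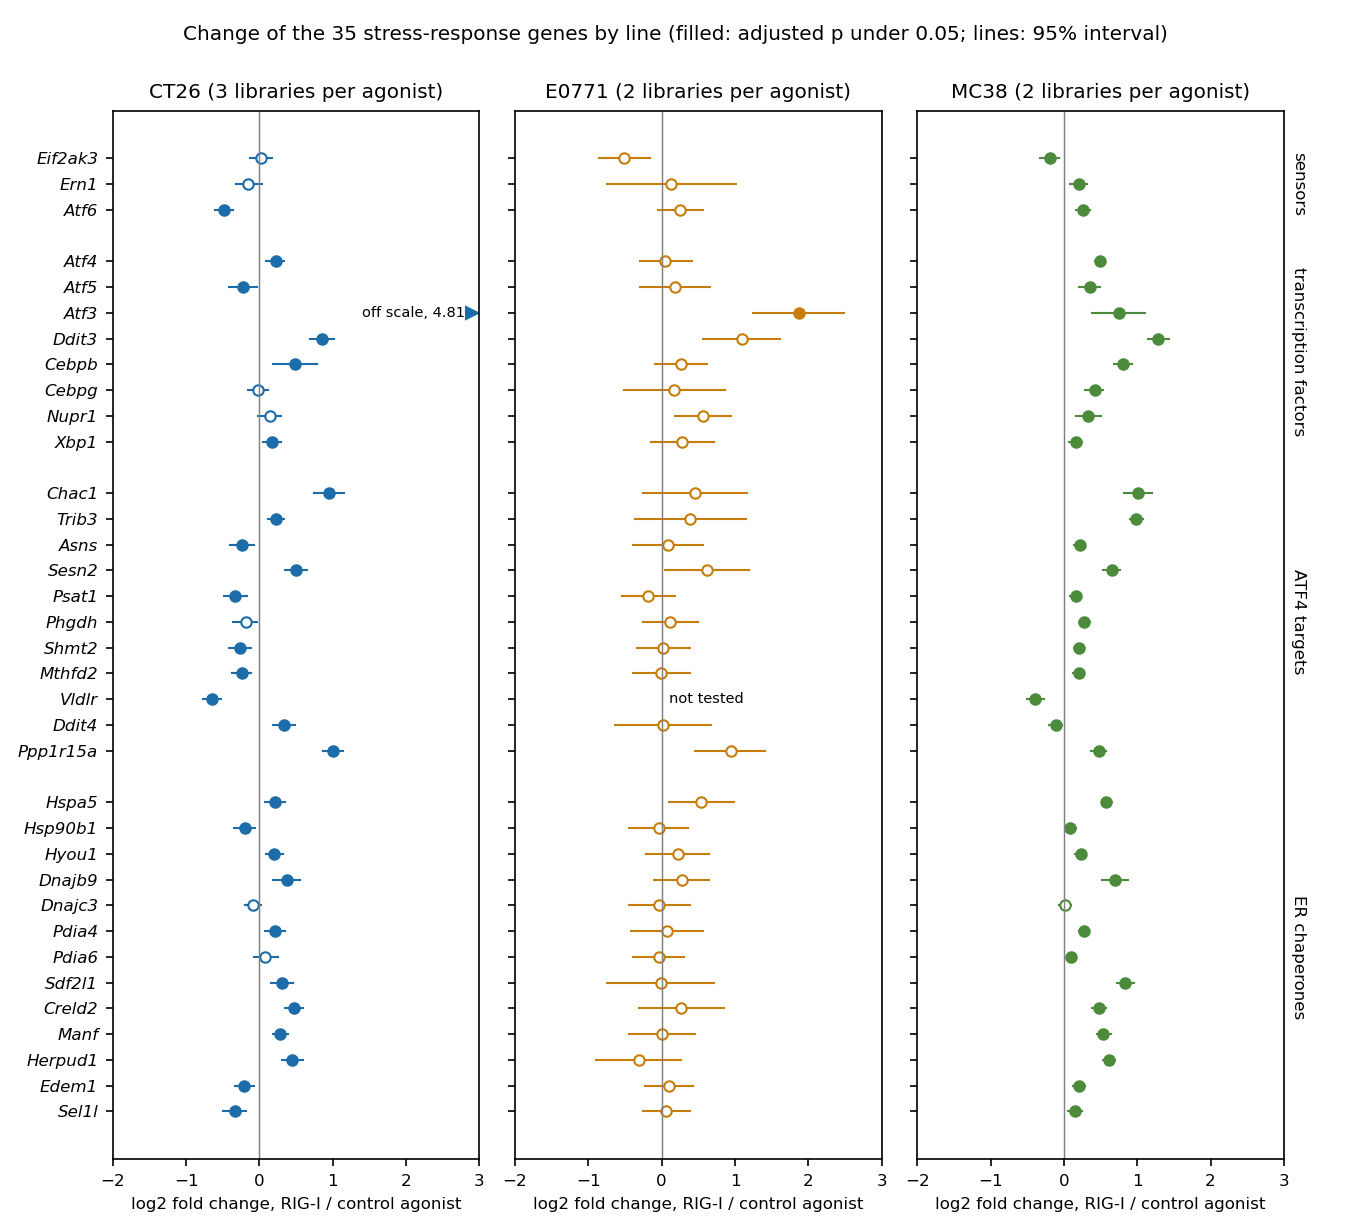
Log2 fold change of each of the 35 genes with the RIG-I agonist against the control agonist, by line, with the 95% interval; filled points passed an adjusted p of 0.05. In MC38 nearly all points sit right of 0 with narrow intervals, in CT26 points lie on both sides, and in E0771 only Atf3 is filled.

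Among the sensors, Atf6 fell in CT26 and rose in MC38. Atf6, an ER membrane protein whose cut form is a transcription factor, measured 293, 280 and 300 CPM in the CT26 controls and 208, 210 and 208 CPM with the RIG-I agonist. All 3 treated libraries lay below all 3 controls, a log2 fold change of -0.48 (edgeR, SE 0.06, adjusted p 1.61e-05). In MC38 it went the other way, from 112 and 113 CPM to 133 and 137 CPM, a log2 fold change of 0.26 (edgeR, SE 0.04, adjusted p 4.83e-05), and the groups did not overlap. In E0771 Atf6 measured 103 and 104 CPM in controls and 119 and 127 CPM with the agonist, without overlap, but the log2 fold change of 0.25 (95% interval -0.05 to 0.56) did not pass (adjusted p 0.567, edgeR), though it did in the fit of all libraries (0.0373).

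Eif2ak3, the eIF2 kinase PERK, measured 53.3 and 52.2 CPM in the MC38 controls and 44.2 and 47.7 CPM with the RIG-I agonist. Both treated libraries were lower, with a log2 fold change of -0.19 (edgeR, SE 0.06, adjusted p 0.019), and the call was lost without control replicate 1 (adjusted p 0.0968) or RIG-I replicate 1 (0.173), with DESeq2 (0.344) and in the fit of all libraries (0.234). In CT26 the level was 16.8, 17.3 and 17 CPM in controls and 16, 17.8 and 18 CPM with the agonist, and the groups overlapped. The log2 fold change there was 0.02 (95% interval -0.13 to 0.17), with no call. In E0771 it measured 46.1 and 50.6 CPM against 35.2 and 32.7 CPM, a log2 fold change of -0.51 (SE 0.14) that did not pass (adjusted p 0.271, edgeR) although both treated libraries were lower, and that passed in the fit of all libraries (0.00195).

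Ern1, the IRE1 kinase and nuclease, measured 124, 101 and 96.3 CPM in the CT26 controls and 95.2, 94.5 and 101 CPM with the RIG-I agonist. The groups overlapped, and the log2 fold change of -0.15 (95% interval -0.32 to 0.03) was not called. In MC38 it rose from 64.2 and 67.5 CPM to 71.5 and 79.1 CPM, a log2 fold change of 0.20 (edgeR, SE 0.06, adjusted p 0.00829). That call was lost without control replicate 1 (adjusted p 0.0801) or RIG-I replicate 2 (0.224), with DESeq2 (0.182) and in the fit of all libraries (0.718). In E0771 Ern1 measured 25.2 and 37 CPM in controls and 24.1 and 44 CPM with the agonist, with overlap and a log2 fold change of 0.13 (95% interval -0.75 to 1.01).

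The transcription factors were mostly higher: 5 of 8 rose and 1 fell in CT26, 8 of 8 rose in MC38, and 1 of 8 rose in E0771. Over all genes 19.8% rose and 18.6% fell in CT26, 18.9% and 16.9% in MC38, and 1.53% and 0.0256% in E0771. The list medians in CT26, MC38 and E0771 were 0.19, 0.45 and 0.27 on the log2 scale, against 0.00, -0.00 and -0.01 for all genes tested. Atf4, the central factor of the integrated stress response, lies at chr15:80255184-80257541 (GRCm38). It measured 921, 949 and 941 CPM in the CT26 controls and 1109, 1071 and 1087 CPM with the RIG-I agonist. The treated libraries were all higher, by a log2 fold change of 0.22 (edgeR, SE 0.06, adjusted p 0.0112), and the call was lost without RIG-I replicate 1 (adjusted p 0.0694) and in the fit of all libraries (0.0504). In MC38 Atf4 rose from 357 and 361 CPM to 516 and 496 CPM, a log2 fold change of 0.49 (edgeR, SE 0.03, adjusted p 2.08e-10), again without overlap. In E0771 it was 585 and 612 CPM in controls and 636 and 607 CPM with the agonist, and the groups overlapped, with a log2 fold change of 0.05 (95% interval -0.30 to 0.41). These are mRNA levels; ATF4 is controlled largely in translation, which these libraries do not measure.

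Atf3, a repressor and activator of the ATF/CREB family that ATF4 induces, rose in all 3 lines from very different levels. It lies at chr1:191170296-191218039. In CT26 it measured 0.0278, 0 and 0.0781 CPM in controls and 1.04, 0.979 and 1.2 CPM with the RIG-I agonist, which is 4 counts summed over the 3 controls and 117 over the 3 treated libraries. The log2 fold change of 4.81 (edgeR, SE 0.52, adjusted p 7.73e-06) therefore rests on few control counts, and the gene passed the low-count filter through the treated libraries alone. It was 6.02 without control replicate 3 and 4.24 without control replicate 2, and the treated level stayed near 1 CPM. In E0771 Atf3 measured 11.8 and 7.73 CPM in controls and 36.6 and 34.6 CPM with the agonist, a log2 fold change of 1.87 (edgeR, SE 0.24, adjusted p 0.0376). Both treated libraries lay far above both controls, and Atf3 was the gene of the list called in that line. In MC38 it rose from 4.5 and 4.61 CPM to 6.92 and 8.26 CPM, a log2 fold change of 0.75 (edgeR, SE 0.17, adjusted p 0.00188), a call lost without RIG-I replicate 2 (adjusted p 0.0573), with DESeq2 (0.112) and in the fit of all libraries (0.113).

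Ddit3, which encodes CHOP, a C/EBP-family factor tied to stress-induced cell death, lies at chr10:127290774-127296288. In CT26 it measured 55.2, 67.9 and 62.6 CPM in controls and 107, 117 and 109 CPM with the RIG-I agonist. All treated libraries were above all controls, with an adjusted p of 9.35e-07 (edgeR). In MC38 it rose from 23.9 and 22 CPM to 56.9 and 56.2 CPM, the largest change of the list in that line, a log2 fold change of 1.29 (edgeR, SE 0.07, adjusted p 3.13e-12). In E0771 it measured 15.6 and 20.4 CPM in controls and 34.4 and 42.1 CPM with the agonist. Those groups did not overlap and the log2 fold change was 1.09 (95% interval 0.56 to 1.61), but the adjusted p was 0.112 by edgeR, against 0.00569 by DESeq2, 0.0328 by edgeR with no low-count filter and 0.000257 in the fit of all libraries. Ddit3 overlaps Mars, the methionyl-tRNA synthetase gene, on the opposite strand, and whether the counting used strand is not given in the sources used here. A further identifier carrying the symbol Ddit3 held 0.667% as many counts and was left out.

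Xbp1, the factor activated by IRE1 splicing, measured 56.2, 54.5 and 57.4 CPM in the CT26 controls and 63.7, 63.5 and 61.9 CPM with the RIG-I agonist. The treated libraries were all higher, by a log2 fold change of 0.17 (edgeR, SE 0.06, adjusted p 0.0302), but the call was lost without control replicate 2 (adjusted p 0.124) or without any 1 of the 3 RIG-I libraries (0.113, 0.104 and 0.0717), with no low-count filter (0.115) and in the fit of all libraries (0.304). In MC38 it rose from 124 and 119 CPM to 140 and 132 CPM, a log2 fold change of 0.16 (edgeR, SE 0.04, adjusted p 0.00698), a call lost without control replicate 2 (0.0697) or RIG-I replicate 1 (0.0588), with DESeq2 (0.108) and in the fit of all libraries (0.399). In E0771 it measured 64.5 and 79.7 CPM against 80.1 and 94.7 CPM, without overlap, and the log2 fold change of 0.28 (95% interval -0.15 to 0.71) was not called. Gene-level counts do not separate spliced from unspliced Xbp1.

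Of the other factors, Cebpb, which partners ATF4, rose in CT26 (35.7 ± 6.53 to 49.9 ± 4.08 CPM, SD, n = 3) and in MC38 (42.6 ± 0.214 to 74.7 ± 1.6 CPM, SD, n = 2), with log2 fold changes of 0.48 and 0.81. The CT26 call was lost without control replicate 2 (adjusted p 0.0722) or RIG-I replicate 2 (0.0587), and Cebpb overlaps Tmem189 on the opposite strand. Atf5, an ATF4-related factor linked to mitochondrial stress, fell in CT26 by 0.23 on the log2 scale and rose in MC38 by 0.35. The CT26 call (adjusted p 0.0496, edgeR) was lost without control replicate 1 or 2 or RIG-I replicate 1 or 3 (adjusted p 0.133, 0.144, 0.174 and 0.125) and in the fit of all libraries (0.0953), and Atf5 overlaps Nup62 on the opposite strand. Cebpg, a dimer partner within the C/EBP family, and Nupr1, a small stress-induced chromatin protein, rose in MC38 with log2 fold changes of 0.42 and 0.33, the latter not with DESeq2 (adjusted p 0.109). In CT26 their values were -0.02 and 0.14 without a call, and in E0771 0.17 and 0.56 without a call. In the fit of all libraries Nupr1 passed in E0771 (adjusted p 0.00708) and not in MC38 (0.0833).

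**Figure D2:**
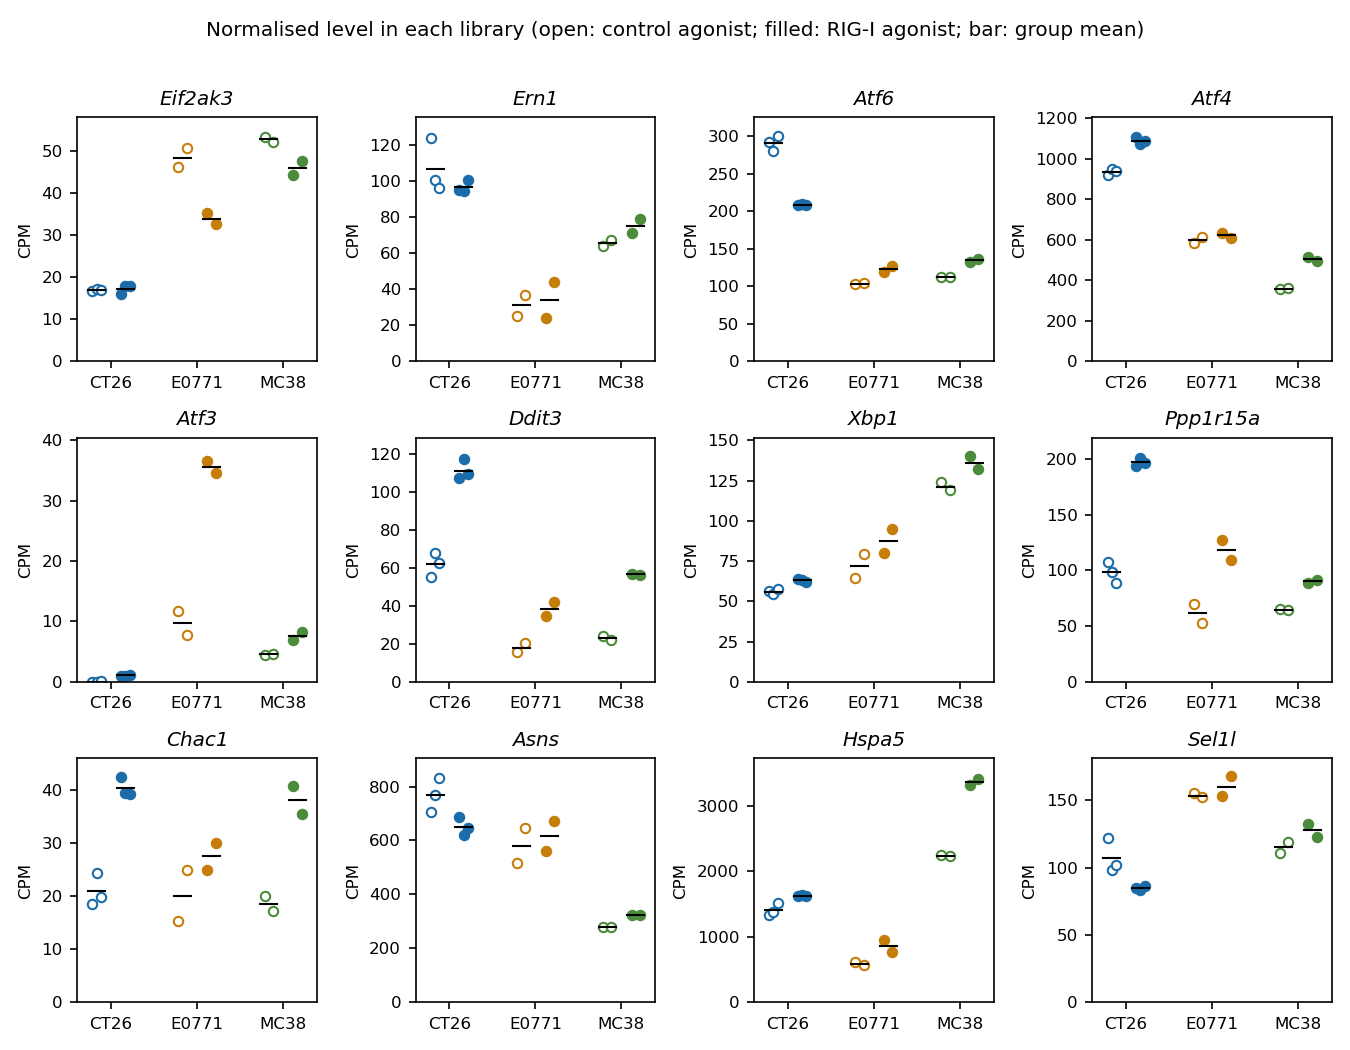
CPM of 12 of the genes in each of the 14 libraries, with open points for the control agonist, filled points for the RIG-I agonist and a bar at the group mean; each vertical axis starts at 0 and differs between genes. Atf6, Asns and Sel1l move down in CT26 and up in MC38, while Ddit3 and Ppp1r15a move up in all 3 lines; the E0771 difference for these 2 was not called.

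The ATF4 targets split in CT26: 5 of 11 rose, 5 fell and Phgdh was not called, with a median log2 fold change of -0.19. In MC38 9 rose and 2 fell, with a median of 0.22. Of all genes tested, 19.8% rose and 18.6% fell in CT26, and 18.9% and 16.9% in MC38. In E0771 0 of 10 passed by edgeR, 2 had an unadjusted p under 0.05, DESeq2 called Ppp1r15a, and the median was 0.11. The targets that rose in CT26 were Ppp1r15a, Chac1, Sesn2, Ddit4 and Trib3, and those that fell were Vldlr, Psat1, Shmt2, Mthfd2 and Asns.

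Ppp1r15a encodes GADD34, the phosphatase subunit that reverses eIF2 phosphorylation, and lies at chr7:45522916-45526268. In CT26 it measured 108, 98.9 and 88.5 CPM in controls and 194, 201 and 196 CPM with the RIG-I agonist. The treated libraries stood at 2-fold the controls, the largest rise among the ATF4 targets there (log2 interval 0.86 to 1.14, SE 0.07, adjusted p 3.82e-08, edgeR). In MC38 it rose from 65.2 and 64.4 CPM to 89.1 and 91.1 CPM (log2 fold change 0.48, SE 0.05, adjusted p 1.41e-07, edgeR). In E0771 it measured 70.3 and 52.9 CPM against 127 and 109 CPM, without overlap. The E0771 log2 fold change of 0.94 (95% interval 0.46 to 1.41) did not pass (adjusted p 0.133, edgeR) but did with DESeq2 (0.00327), with no low-count filter (0.0342) and in the fit of all libraries (0.000234).

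Chac1, a glutathione-degrading enzyme and one of the most ATF4-responsive genes, lies at chr2:119351229-119354381. It measured 18.5, 24.3 and 19.8 CPM in the CT26 controls and 42.4, 39.4 and 39.2 CPM with the RIG-I agonist, with no overlap (log2 fold change 0.95, SE 0.09, adjusted p 3.46e-06, edgeR). In MC38 it rose from 20.1 and 17.2 CPM to 40.8 and 35.5 CPM, a fold change of 2.02 (log2 1.01, SE 0.09, adjusted p 2.52e-08, edgeR). In E0771 it measured 15.3 and 24.9 CPM against 24.9 and 30 CPM. Control replicate 2 and RIG-I replicate 1 had the same level there, and the log2 fold change of 0.45 (95% interval -0.25 to 1.16) was not called.

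Trib3, a pseudokinase that ATF4 and CHOP induce, and Sesn2, a leucine-sensing brake on mTORC1, rose in CT26 and in MC38. Trib3 went from 127 ± 4.95 to 147 ± 5.13 CPM in CT26 (SD, n = 3) and from 96.5 ± 3.96 to 191 ± 0.00892 CPM in MC38 (SD, n = 2), log2 fold changes of 0.22 and 0.99. The CT26 call of Trib3 was lost without RIG-I replicate 1 (adjusted p 0.0504) and in the fit of all libraries (0.473). Sesn2 rose by 0.50 in CT26 and 0.66 in MC38 on the log2 scale, and its value of 0.62 in E0771 had an adjusted p of 0.44, against 0.0197 in the fit of all libraries. Ddit4, also called REDD1, a further mTORC1 inhibitor, rose in CT26 (log2 0.33, adjusted p 0.00231, edgeR) and fell slightly in MC38 (log2 -0.11, adjusted p 0.0472, edgeR). The MC38 call of Ddit4 was lost without control replicate 2 (adjusted p 0.479), RIG-I replicate 1 (0.141) or RIG-I replicate 2 (0.113), with DESeq2 (0.391), with median-ratio normalisation (0.0522) and with no low-count filter (0.107), and its CT26 call was lost in the fit of all libraries (0.164).

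Of the 5 members of amino acid and one-carbon supply, 4 fell in CT26 and all 5 rose in MC38, each by a small amount. Asns, which makes asparagine, measured 705, 769 and 833 CPM in the CT26 controls and 687, 621 and 645 CPM with the RIG-I agonist. The treated libraries were all lower (log2 fold change -0.24, SE 0.07, adjusted p 0.0203, edgeR), although the call was lost without control replicate 2 (0.0651), RIG-I replicate 2 (0.0933) or RIG-I replicate 3 (0.056), and in the fit of all libraries (0.0509). In MC38 Asns rose from 281 and 278 CPM to 324 and 324 CPM (log2 fold change 0.22, SE 0.03, adjusted p 3.83e-05, edgeR). The serine synthesis enzyme Psat1 fell by 0.33 in CT26 and rose by 0.16 in MC38, and the mitochondrial folate enzymes Shmt2 and Mthfd2 fell by 0.27 and 0.24 in CT26 and rose by 0.21 and 0.20 in MC38, all on the log2 scale. Phgdh, the first enzyme of serine synthesis, rose in MC38 (log2 0.28), and its value of -0.19 in CT26 missed the threshold (adjusted p 0.0646, edgeR) and passed with DESeq2 (0.0151), with no low-count filter (0.0208) and without control replicate 1 (0.000453). In E0771 these 5 genes lay between -0.18 and 0.12, and none was called. In the fit of all libraries none of the 5 rises in MC38 passed, with adjusted p of 0.364, 0.365, 0.115, 0.19 and 0.232 for Asns, Psat1, Phgdh, Shmt2 and Mthfd2.

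Vldlr, a lipoprotein receptor that ATF4 can induce, was the ATF4 target that fell in both lines where it was expressed. It measured 271, 244 and 267 CPM in the CT26 controls and 166, 166 and 165 CPM with the RIG-I agonist, well below the controls (log2 fold change -0.65, SE 0.06, adjusted p 7.81e-07, edgeR). In MC38 it fell from 66 and 70.6 CPM to 52.7 and 51.1 CPM (log2 fold change -0.39, SE 0.06, adjusted p 1.36e-05, edgeR).

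Of the 13 ER chaperones and degradation genes, 8 rose and 3 fell in CT26, with a median log2 fold change of 0.21. In MC38 12 rose, with a median of 0.28 and Dnajc3 not called. The shares of all genes were 19.8% higher and 18.6% lower in CT26, and 18.9% and 16.9% in MC38. In E0771 0 of 13 passed by edgeR or DESeq2, 1 (Hspa5) had an unadjusted p under 0.05, and the median was 0.06. Hspa5, which encodes BiP, the main ER chaperone of the HSP70 family, lies at chr2:34771970-34777547. It measured 1339, 1383 and 1514 CPM in the CT26 controls and 1625, 1641 and 1619 CPM with the RIG-I agonist. The groups did not overlap and the log2 fold change was 0.21 (SE 0.06, adjusted p 0.0226, edgeR). The call was lost without control replicate 2 or any 1 of the RIG-I libraries (adjusted p 0.0965, 0.0883, 0.0957 and 0.0709), with no low-count filter (0.0647) and in the fit of all libraries (0.175).

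In MC38 Hspa5 rose from 2241 and 2235 CPM to 3313 and 3398 CPM, a fold change of 1.5 (log2 0.58, SE 0.03, adjusted p 5.27e-12, edgeR). The replicates there lay close together and far apart between agonists. In E0771 it measured 616 and 566 CPM in controls and 946 and 773 CPM with the agonist, both treated libraries higher. That log2 fold change of 0.54 (95% interval 0.10 to 0.98) did not pass (adjusted p 0.367, edgeR) but did in the fit of all libraries (0.0034).

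The chaperones that rose most in CT26 were Creld2, an ER calcium-binding protein (log2 0.47, 69.8 ± 3.2 to 96.8 ± 1.56 CPM, SD, n = 3), Herpud1 (0.45) and Dnajb9, the BiP co-chaperone ERdj4 (0.37). Sdf2l1, a co-chaperone of ERdj3, rose by 0.31, Manf, a secreted ER stress protein, by 0.28, Pdia4, a disulfide isomerase, by 0.21 and Hyou1, an HSP110-like exchange factor of BiP, by 0.20. Of these, Pdia4 was lost without RIG-I replicate 1 (adjusted p 0.12) and Hyou1 without RIG-I replicate 3 (0.0796), and Sdf2l1, Manf, Pdia4 and Hyou1 did not pass in the fit of all libraries (0.171, 0.06, 0.26 and 0.209). In MC38 the order was led by Sdf2l1 (log2 0.84, 49.4 ± 3.79 to 88.7 ± 0.0698 CPM, SD, n = 2), Dnajb9 (0.70), Herpud1 (0.62), Hspa5 and Manf (0.54). Manf overlaps Dcaf1 on the opposite strand and Rbm15b on the same strand, so part of its counts may not be its own.

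Hsp90b1, the ER HSP90 called GRP94, and the degradation genes Edem1 and Sel1l, which pick and export misfolded glycoproteins, fell in CT26 and rose in MC38. Sel1l measured 122, 98 and 102 CPM in the CT26 controls and 84.5, 83 and 86.4 CPM with the RIG-I agonist, all treated libraries lower (log2 fold change -0.34, SE 0.07, adjusted p 0.00259, edgeR). Edem1 fell by 0.21 and Hsp90b1 by 0.20 on the log2 scale. The Edem1 call was lost without RIG-I replicate 1 (adjusted p 0.0864) or 2 (0.0533), and the Hsp90b1 call without RIG-I replicate 1, 2 or 3 (0.121, 0.0723 and 0.0702). In MC38 the rises of Edem1, Sel1l and Hsp90b1 were 0.21, 0.15 and 0.09 on the log2 scale. The MC38 call of Sel1l was lost without control replicate 1 (adjusted p 0.217) or RIG-I replicate 1 (0.158) and with DESeq2 (0.186), and that of Hsp90b1 without control replicate 1 or 2 or RIG-I replicate 2 (0.138, 0.317 and 0.257). Pdia6, a disulfide isomerase, rose in MC38 by 0.10, which was lost without control replicate 1 or 2 or RIG-I replicate 2 (0.157, 0.0664 and 0.0528), and gave 0.08 in CT26 without a call. Dnajc3, the PKR and PERK inhibitor p58IPK, gave -0.09 in CT26 and 0.02 in MC38, neither called.

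Genes with the same promoter letters did not move alike in CT26. Of the CARE-bearing ATF4 targets, Chac1 and Trib3 rose, and Asns and Vldlr fell. Of the ERSE-bearing chaperones, Hspa5 and Creld2 rose, Hsp90b1 fell, and Pdia6 and Dnajc3 were not called. In MC38 Chac1, Trib3, Asns, Hspa5, Creld2, Hsp90b1 and Pdia6 rose, Vldlr fell and Dnajc3 was not called. Within E0771 edgeR called none, and Vldlr was not tested. Hspa5 passed there in the fit of all libraries (edgeR, adjusted p 0.0034). With the replicate number as a block, Hspa5, Chac1 and Trib3 passed in E0771 (edgeR, adjusted p 0.000287, 0.0209 and 0.00197). Several of these calls, among them those of Asns, Hspa5 and Hsp90b1 in CT26, were lost in other settings, as given above.

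Set side by side, the median of the ATF4 targets lay 0.40 below that of the ER chaperones in CT26 on the log2 scale (difference -0.40). The same difference taken in each RIG-I library against the mean of the controls was -0.36, -0.33 and -0.41. In MC38 the medians lay close (difference -0.06, and -0.04 and -0.07 by library), and in E0771 the difference was 0.04, with -0.09 and 0.26 by library. The ATF4 targets spread over 1.65 log2 units in CT26 and 1.41 in MC38, against 0.82 for the chaperones in both lines. In CT26 the ATF4 target median was the value of Phgdh, which was not called, between 5 targets called higher and 5 called lower. The quartiles there were -0.26 and 0.42 for the ATF4 targets and -0.09 and 0.31 for the chaperones, so the 2 lists overlapped. The lists were chosen with earlier results of these data known, so their medians describe these libraries and carry no test.

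A wider set of ATF4 targets was read in the same way. Of 31 further listed genes, mainly amino acid transporters, aminoacyl-tRNA synthetases and amino acid enzymes, 28 were tested in CT26. There, 1 rose and 19 fell (median log2 fold change -0.24), against 19.8% and 18.6% of all genes, the shares in MC38 being 18.9% and 16.9%. The member that rose was Slc3a2, the heavy chain of amino acid transporters (log2 0.42), and the largest falls were Aldh1l2, a mitochondrial folate enzyme (-0.98), Pycr1 of proline synthesis (-0.73) and the alanine transaminase Gpt2 (-0.50). In MC38 24 of 29 rose and 1, the glutamine transporter Slc38a2, fell (-0.16), with a median of 0.24 and the largest rises in Wars, the tryptophanyl-tRNA synthetase (0.60), Jdp2 (0.51) and the stress hormone Gdf15 (0.46). In E0771 0 of 29 were called by edgeR within the line and 0 of 30 by DESeq2, 1 had an unadjusted p under 0.05, and the median was 0.11. The fit of all libraries left 17 lower in CT26 (median -0.28), where 1983 of all 14657 genes were lower. In MC38 it left 6 higher and 0 lower (median 0.26), where 624 and 374 of all genes were. For E0771 it called 2 of 31 higher and 0 lower (median 0.10), where 949 and 639 of all genes were. That fit did not call Slc3a2 in CT26 (edgeR, adjusted p 0.0527) or Slc38a2 (0.564), Jdp2 (0.0513) and Gdf15 (0.103) in MC38. DESeq2 also lost Jdp2 in MC38 (adjusted p 0.143). Of the 28 genes tested in both CT26 and MC38, 16 were lower in CT26 and higher in MC38, against 1.44% of the 11539 genes tested in both lines. Of the 35 listed stress genes 9 did so (Atf6, Atf5, Asns, Psat1, Shmt2, Mthfd2, Hsp90b1, Edem1 and Sel1l), while 17 were higher in both lines, against 8.41% of all genes. Vldlr was lower in both, as were 7.93% of all genes, and Ddit4 was higher in CT26 and lower in MC38, as were 1.27%.

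A further 30 ER folding and degradation genes were read beside them. In CT26 4 of 29 rose and 8 fell (median -0.09), where 19.8% of all genes rose and 18.6% fell, and in MC38 12 of 29 rose and 7 fell (median 0.03), against 18.9% and 16.9%. Calr, the lectin chaperone calreticulin, rose in CT26 (log2 0.41), as did Syvn1, the ubiquitin ligase HRD1 (0.59 in CT26 and 0.44 in MC38). Ero1a, the ER oxidase, fell in CT26 (-0.95) and in MC38 (-0.23), and Dnajc10 fell in both (-0.43 and -0.35). The fit of all libraries called 1 higher and 7 lower in CT26 (all genes: 1520 and 1983 of 14657) and 5 higher and 1 lower in MC38 (624 and 374). It did not call Calr in CT26 (edgeR, adjusted p 0.169) or Ero1a in MC38 (0.422). Ero1a in CT26 was not called without control replicate 1 (edgeR, adjusted p 0.0501). The 4 rises in CT26 became 2 without control replicate 2 or any 1 of the RIG-I libraries, and the 8 falls became 5 without RIG-I replicate 1. Of the 29 genes tested in both lines, 0 were lower in CT26 and higher in MC38, near the 1.44% of all 11539 genes. A further 4 were higher in both lines and 6 lower in both, against 8.41% and 7.93% of all genes.

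**Figure D3:**
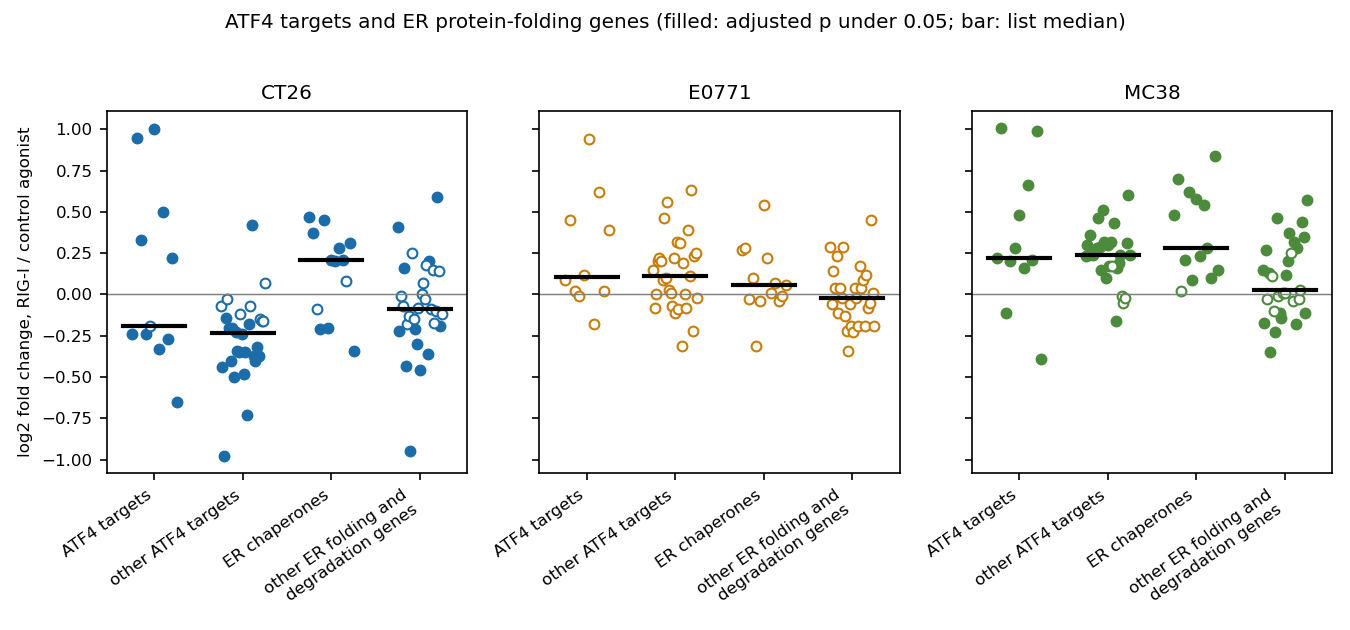
Log2 fold changes of the ATF4 targets, 31 further ATF4 targets, the ER chaperones and 30 further ER folding and degradation genes, 1 point per tested gene and a bar at each list's median; filled points passed an adjusted p of 0.05. The further ATF4 targets centre on -0.24 in CT26 and 0.24 in MC38, and the E0771 points are all open.

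Among the eIF2 kinases and eIF2 factors, Eif2ak2, the interferon-induced double-stranded RNA kinase PKR, rose in each line. It measured 207, 212 and 237 CPM in the CT26 controls and 410, 416 and 418 CPM with the RIG-I agonist (log2 fold change 0.92, SE 0.07, adjusted p 1.14e-07, edgeR). In E0771 it rose from 63.4 and 43.5 CPM to 173 and 233 CPM (1.93, SE 0.25, adjusted p 0.0401, edgeR), and in MC38 from 96.3 and 104 CPM to 167 and 180 CPM (0.80, SE 0.05, adjusted p 2.65e-11, edgeR). No treated library overlapped a control in any line. Of the 10 genes of that list, 4 rose and 1, the amino acid sensing kinase Eif2ak4, fell in CT26 (log2 -0.19), where 19.8% of all genes rose and 18.6% fell. In MC38 4 rose and 0 fell, against 18.9% and 16.9% of all genes. The Eif2ak4 call was lost without control replicate 2 (adjusted p 0.0563) or any 1 of the RIG-I libraries (0.0983, 0.0705 and 0.0851).

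The difference between lines was tested directly in 1 model of all 14 libraries, in which each pair of comparisons shares a line. Of the 35 genes, 8 differed in their response between CT26 and MC38, against 3.8% of 14657 genes, 3 between CT26 and E0771, against 3.88%, and 2 between E0771 and MC38, against 2.11%. Atf6 responded lower in CT26 than in MC38 by 0.79 (difference -0.79, 95% interval -0.98 to -0.60, adjusted p 0.000261, edgeR) and than in E0771 by 0.77 (difference -0.77, adjusted p 0.000293, edgeR) on the log2 scale. Atf6 differed in 10 of 10 fits that left out 1 library, for each of these pairs. For Atf3 the fitted difference was 3.96 between CT26 and MC38 (SE 0.54, adjusted p 0.00129, edgeR) and 2.85 between CT26 and E0771 (SE 0.54, adjusted p 0.0104, edgeR). Its size is set by the 4 control counts of CT26, and the treated mean was 1.07 CPM in CT26 against 35.6 CPM in E0771, so it is given without a reading of which line responded more.

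The other 6 differences between CT26 and MC38 were all lower in CT26: Sel1l -0.55, Psat1 -0.54, Shmt2 -0.53, Phgdh -0.52, Mthfd2 -0.49 and Edem1 -0.46, with adjusted p between 0.0219 and 0.0386 (edgeR). The count of 8 fell to 2 without any 1 of the 3 CT26 RIG-I libraries or of the 4 MC38 libraries, to 4 without CT26 control replicate 2, to 6 without control replicate 3 and to 7 without control replicate 1. With limma voom and a variance factor for each line, all 8 passed and the count was 22. There, 1150 of all 14657 genes were higher and 1442 lower, so calls rose over all genes too. In the edgeR model 290 of all genes were higher and 267 lower. Without CT26 RIG-I replicate 1, 2 or 3 these became 180 and 105, 182 and 111, and 205 and 133. Calls over all genes also fell without any 1 MC38 library. The part of this in the lower counts of members was not tested. Eif2ak3 differed between CT26 and E0771 (0.50, adjusted p 0.0305, edgeR), but not with voom (0.243), and in 4 of 10 fits that left out 1 library. Between E0771 and MC38, Atf4 (-0.45) and Herpud1 (-0.94) responded lower in E0771 (adjusted p 0.0352 for both, edgeR); voom gave 0.0515 and 0.0186, and each was called in 2 of 8 fits that left out 1 library. That count of 2 became 0 without E0771 control replicate 2 or any 1 of the 4 MC38 libraries, 1 without E0771 RIG-I replicate 2, 4 without E0771 RIG-I replicate 1 and 5 without E0771 control replicate 1. The count of 3 between CT26 and E0771 became 2 without CT26 control replicate 2, CT26 RIG-I replicate 2 or 3 or E0771 control replicate 2, and 7 without E0771 RIG-I replicate 1.

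For the 31 further ATF4 targets the same model gave 13 genes with a lower response in CT26 than in MC38 (1.82% of all genes were lower) and 7 lower in CT26 than in E0771 (2.81%). Lars and Eprs, synthetases named after their values were seen, were among both sets, with differences of -0.72 and -0.72 against MC38. With voom the counts were 23 and 4, where 1442 and 164 of all 14657 genes were lower.

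The lines also differed before any RIG-I signal. On the scale of 1 normalisation over all 14 libraries, 17 of the 35 genes were higher and 13 lower in the CT26 than in the E0771 controls, against 37.2% and 33.1% of all genes. Against MC38, 15 were higher and 14 lower in CT26 (37.8% and 35.8%), and 11 higher and 18 lower in E0771 (31.5% and 32.6%). The groups of the list separated: 8 of 11 ATF4 targets were higher and 1 lower in CT26 than in MC38 (median log2 difference 0.51), while 0 of 13 chaperones were higher and 10 lower (median -0.66), against 0.03 for all genes. In E0771 against MC38, 2 chaperones were higher and 11 lower (median -0.91), and 4 ATF4 targets were higher and 3 lower (median 0.19).

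Atf4 averaged 985 CPM in the CT26, 582 CPM in the E0771 and 352 CPM in the MC38 controls, 2.8-fold apart between CT26 and MC38 (adjusted p 4.65e-10, edgeR). Hspa5 ran in another order, with 2192 CPM in MC38, 1484 CPM in CT26 and 574 CPM in E0771, 3.82-fold apart between MC38 and E0771 (adjusted p 3.17e-09, edgeR). Hyou1 (663 CPM in MC38, 253 CPM in E0771 and 169 CPM in CT26) and Pdia4 (508, 271 and 182 CPM) were also highest in MC38. Atf6 stood at 306 CPM in CT26 against 101 CPM in E0771 and 110 CPM in MC38, and the latter pair did not differ (adjusted p 0.101, edgeR). Atf5 was highest in CT26 (416 CPM), then E0771 (94.3 CPM) and MC38 (32.4 CPM), and Ddit4 ran in the opposite order, with 27.6, 81.5 and 182 CPM.

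Vldlr averaged 274 CPM in the CT26 and 66.9 CPM in the MC38 controls and had 0 counts in all 4 E0771 libraries. Set against a floor of 3 counts over the E0771 control group, it was at least 2348-fold higher in CT26 and at least 574-fold higher in MC38. Placing it at that bound left the ATF4 target medians at 0.49 (CT26 against E0771) and 0.19 (E0771 against MC38). Atf3 averaged 0.037 CPM in CT26, 9.46 CPM in E0771 and 4.46 CPM in MC38.

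Compared between genes per kb of the longest coding transcript, the controls were led by Hsp90b1 in CT26 (670 ± 42.2 CPM per kb, SD, n = 3) and in MC38 (896 ± 14.1, SD, n = 2) and by Phgdh in E0771 (365 ± 28.1, SD, n = 2). Atf4 was second in CT26 (571 ± 11.6) and in E0771 (337 ± 12) and lay at rank 7 of 35 in MC38 (204 ± 1.28). In E0771 the ranges of Phgdh (345 to 385), Atf4 (329 to 346) and Hsp90b1 (313 to 346) touched or overlapped, so their order is not resolved. Atf3 was last in CT26 (0.0186) and in MC38 (2.25), and Vldlr in E0771. Pdia6 rose from rank 10 in CT26 to rank 3 in MC38 (160 ± 16.6 and 362 ± 4.09 CPM per kb).

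**Figure D4:**
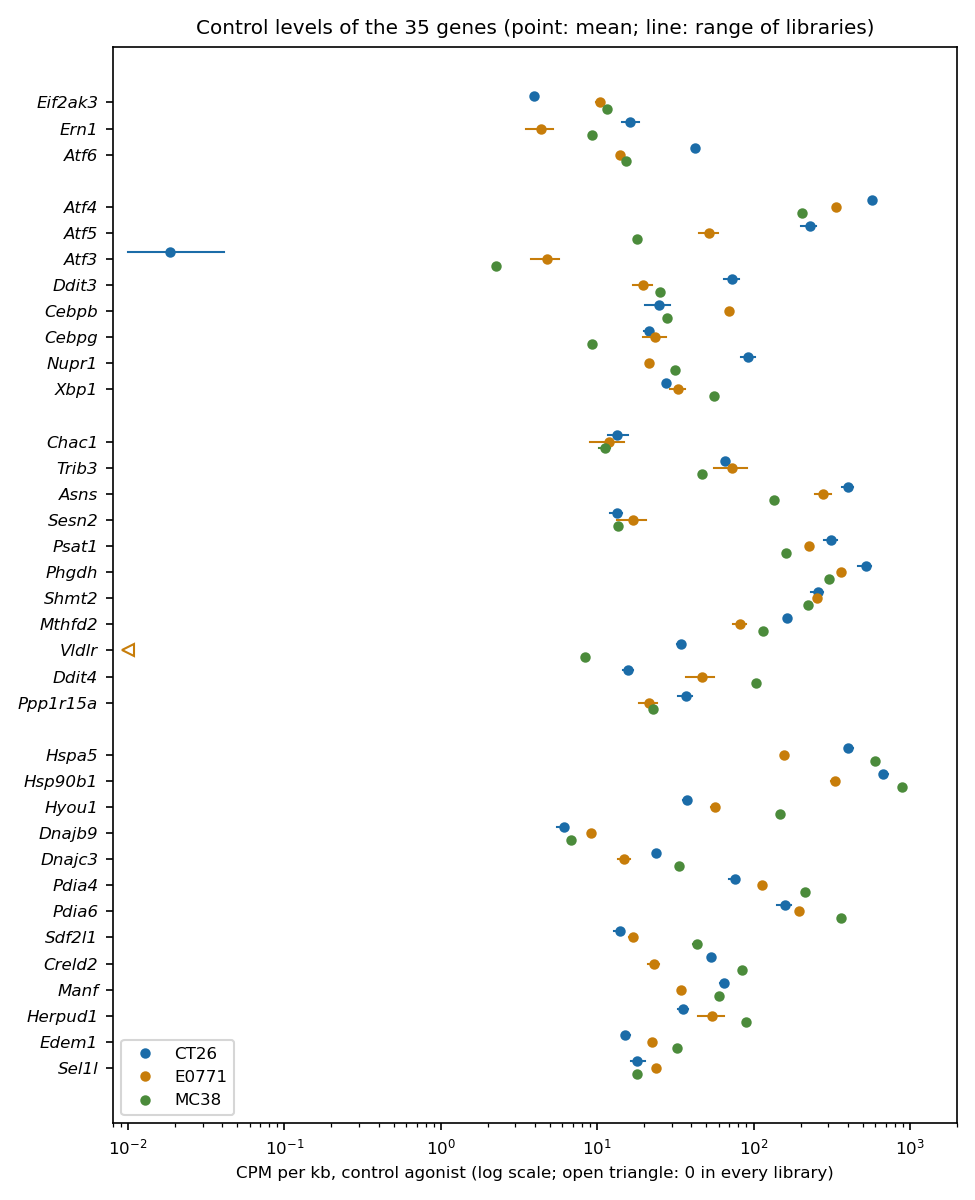
CPM per kb of each gene in the control libraries of the 3 lines on a log axis, with points at the mean and lines over the range of libraries; 1 CT26 library had 0 counts of Atf3, so its line is cut at the left edge, and the open triangle marks Vldlr in E0771. ER chaperones lie mostly furthest right in MC38, while Atf4 and Atf5 lie furthest right in CT26.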

How the data were processed

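RNA of 14 libraries was sequenced, and the authors deposited 1 table per line of estimated counts per gene; Salmon, DESeq2 and the build GRCm38 are listed, without roles, in the submitters' processing notes, and their versions, the annotation and any use of strand are not given in the sources used here. Groups and replicate numbers came from the sample titles. The 35 genes and the further lists were chosen with earlier results of these data known. Values were rounded to whole numbers and tested per line with edgeR 4.0.16 (R 4.3.3): TMM normalisation, filterByExpr with a minimum count of 10, robust quasi-likelihood F test, Benjamini-Hochberg adjustment over all genes. Differences between lines came from 1 edgeR fit of all 14 libraries with 6 groups. CPM values use TMM within a line unless 1 normalisation over all libraries is stated. Library totals ranged from 12347361 to 40564102 counts; with few libraries, their number limits precision. Replicates of a group differed by more than sampling noise (chi-square per degree of freedom 2.2 to 40.9).

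Alternatives were DESeq2 1.42.0, median-ratio (RLE) normalisation, no low-count filter, the replicate number as a block, 1 fit of all libraries, limma 3.58.1 voom with a variance factor per line, and leaving out each library. Where leaving out a library left 1 in an arm (E0771 and MC38), that library was assumed to vary like the others. The scripts were tested on simulated counts. Named genes were all 35, with every library's value for those called with an absolute log2 fold change of at least 1 and for Atf4, Hspa5, Xbp1, Ddit3, Eif2ak3, Ern1 and Atf6; values per library are also given for Asns, Vldlr and Sel1l, chosen after their values were seen. From the further lists, up to 3 largest rises and falls per line and Eif2ak2 were named. Amino acid sequences were not used. In these bulk libraries, a change in the share of responding cells and in RNA per cell cannot be told apart.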

Additional observations from a re-analysis of the deposited data

Results flagged for a closer look

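The response to the RIG-I agonist differed between lines for the genes below, by the interaction test in the fit of all 14 libraries (edgeR, adjusted p under 0.05); each value is the log2 fold change of the line named first minus that of the other. Between CT26 and E0771 the differences were 0.50 for Eif2ak3, -0.77 for Atf6 and 2.85 for Atf3. Between CT26 and MC38 they were -0.79 for Atf6, 3.96 for Atf3, -0.54 for Psat1, -0.52 for Phgdh, -0.53 for Shmt2, -0.49 for Mthfd2, -0.46 for Edem1 and -0.55 for Sel1l. Between E0771 and MC38 they were -0.45 for Atf4 and -0.94 for Herpud1. The values for Atf3 rest on 4 control counts in CT26. Line and experiment cannot be told apart in the differences with CT26.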

How the results depend on the processing

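The fit of all 14 libraries gave 9 higher genes in CT26, where 1520 of all 14657 genes were higher. It gave 7 higher and 1 lower in E0771 (all genes: 949 and 639) and 14 higher and 1 lower in MC38 (624 and 374). Its medians in CT26 were -0.24 (ATF4 targets) and 0.16 (chaperones). DESeq2 gave 3 higher in E0771 (370 of all 19699 genes), 1 lower in MC38 (804 of 21016), a CT26 chaperone median of 0.19 and an MC38 ATF4 target median of 0.23. With no low-count filter there were 3 higher in E0771 (264 of all 19699 genes), and those medians were 0.18 and 0.23. Replicate numbers are shared by the groups, but no label says that they pair libraries: same-numbered libraries correlated at 0.06, 0.04 and 0.22 in CT26, 0.59 in E0771 (2 pairs) and -0.02 in MC38, and in CT26 control replicate 1 correlated better with RIG-I replicate 2 (0.12). With the replicate number as a block, the calls of Xbp1 in CT26 (edgeR, adjusted p 0.0601) and Eif2ak2 in E0771 (0.199) were lost. With this block in E0771, 7 of 29 further ATF4 targets were higher and 4 of 5 fibroblast and mesenchymal markers lower. E0771 gave 11 members higher and 2 lower, against 1243 and 1215 of all 11728 genes. CT26 gave 17 and 10 (all genes: 2779 and 2528 of 13893) and MC38 31 and 3 (2585 and 2341 of 12387). The members differing between lines numbered 12 for CT26 and E0771 (all genes: 478 higher and 1057 lower of 14657). They numbered 20 for CT26 and MC38 (785 and 1031) and 7 for E0771 and MC38 (627 and 255). Those numbers were 22 for CT26 and MC38 with voom (all genes: 1150 higher and 1442 lower). For E0771 and MC38 they were 1 with voom (all genes: 156 and 10) and 1 with no filter (238 and 50). Leaving out 1 library gave 2 to 7, 2 to 7 and 0 to 5 for these 3 pairs, ATF4 target medians of -0.21 to -0.15 (CT26), 0.01 to 0.30 (E0771) and 0.22 to 0.24 (MC38), chaperone medians of 0.17 to 0.24, -0.03 to 0.20 and 0.26 to 0.29, and 1 to 2 lower genes in MC38. Control-level counts moved only between 26 and 30 under every alternative run. The cause of these shifts was not tested.

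The genes whose sign turned were all uncalled. In CT26 Eif2ak3 was -0.00 with no filter, -0.03 in the fit of all libraries and -0.01 to 0.07 with 1 library left out, and Cebpg -0.07 to 0.01. In E0771 the ranges with 1 library left out were -0.37 to 0.50 (Ern1), -0.01 to 0.39 (Atf5), -0.17 to 0.45 (Cebpg), -0.07 to 0.26 (Asns), -0.04 to 0.08 (Shmt2), -0.14 to 0.13 (Mthfd2), -0.25 to 0.34 (Ddit4), -0.12 to 0.03 (Hsp90b1), -0.15 to 0.11 (Dnajc3), -0.18 to 0.28 (Pdia4), -0.11 to 0.02 (Pdia6), -0.44 to 0.32 (Sdf2l1), -0.03 to 0.52 (Creld2), -0.21 to 0.20 (Manf) and -0.01 to 0.13 (Sel1l). In MC38 Dnajc3 ran from -0.00 to 0.05.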

Other observations

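Lists read beside the stress genes are given with the share of all genes called, 19.8% higher and 18.6% lower in CT26, and 18.9% and 16.9% in MC38. Of 11 immediate early genes, 11 rose in CT26, among them Egr1 (67 to 436 CPM, log2 2.70), whereas in MC38 4 of 10 rose and 4 fell, among them Fosb (46.4 to 17.2 CPM, log2 -1.43), and Egr1 differed between these lines by 3.34 (adjusted p 2.79e-06, edgeR). In E0771 0 of 10 were called by edgeR and 3 had an unadjusted p under 0.05, as had 10.6% of all genes. There, 3 of 11 rose with DESeq2 (370 of all 19699 genes) and 4 of 11 in the fit of all libraries (949 of 14657). That fit left 1 higher and 1 lower in MC38, where 624 of all genes were higher and 374 lower. Of the hypoxia genes, 6 of 7 fell in CT26 and 6 of 8 in MC38, where 2 rose; in the fit of all libraries 3 fell and 0 rose in MC38. In E0771 0 of 8 hypoxia genes and 0 of 9 cytosolic heat shock genes were called by edgeR, 0 by DESeq2, and 0 had an unadjusted p under 0.05. Of 9 cytosolic heat shock genes, Hsph1 (0.40) and Hspa8 (0.28) rose in CT26, and Hspa1b (-0.18), Hspa8 (-0.17) and Hsph1 (-0.15) fell in MC38, all on the log2 scale. The difference between these lines was called for 0 of 9 by edgeR, with 2 at an unadjusted p under 0.05. With voom it was called for 2, where 1150 of all 14657 genes were higher and 1442 lower. The CT26 call of Hspa8 was lost without RIG-I replicate 1 (adjusted p 0.0564), and the MC38 call of Hspa1b without control replicate 2 (0.268), RIG-I replicate 1 (0.208) or RIG-I replicate 2 (0.0611), with DESeq2 (0.427) and with no low-count filter (0.0597). In the fit of all libraries the calls of Hspa8 in CT26 (0.0529) and of Fosb (0.0549), Hspa1b (0.763), Hspa8 (0.397) and Hsph1 (0.596) in MC38 were lost.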
